A study of Arabidopsis thaliana with 24 samples.

Results

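The genes described here are the Aux/IAA repressors and the auxin response factors (ARFs) of Arabidopsis thaliana. They were taken by gene identifier from a fixed list of 44 genes, 29 Aux/IAA (IAA1 to IAA20 and IAA26 to IAA34) and 15 ARF (ARF1 to ARF11 and ARF16 to ARF19), and all 44 were among the 25960 genes listed. RNA came from hypocotyl explants of wild type (WT, ecotype Columbia, Col-0) and of the siz1-2 mutant, in which the gene SIZ1 is disrupted; SIZ1 is an E3 ligase that attaches the small protein SUMO to its targets. Seedlings of both genotypes grew for 7 days in the dark at 22 °C, and pieces of about 10 mm were cut from their hypocotyls. The 0 d group was taken within 15 minutes of cutting. The CIM 4 d group had spent 4 days in constant light on callus-inducing medium (CIM), rich in auxin (2,4-D at 0.5 µg/ml, kinetin, a cytokinin, at 0.05 µg/ml). The SIM 4 d and SIM 6 d groups then spent 4 or 6 days on a cytokinin-rich medium that induces shoots (SIM; IAA, an auxin, at 0.15 µg/ml and 2-IPA, a cytokinin, at 0.5 µg/ml). Each of the 8 groups of genotype by stage had 3 libraries, 24 in all. Between 0 d and CIM 4 d the light, the hormones, the cut and the time changed together, and these cannot be told apart. From CIM to SIM the auxin, the cytokinin, their doses and the time changed together. No group stayed on CIM, so these cannot be told apart either.

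Auxin acts by removing repressors. Aux/IAA proteins bind ARFs at auxin-responsive promoters and recruit TOPLESS-type co-repressors; auxin brings most Aux/IAA proteins to the receptors TIR1 and AFB1 to AFB5, which mark them for degradation. Many Aux/IAA genes are themselves auxin-induced through ARFs, which closes a feedback loop, whereas most ARF genes respond little to auxin. In explants, an auxin-rich medium gives a callus that resembles a lateral root primordium, and a cytokinin-rich medium then gives shoots. The question the design puts to these families is how their transcripts change from explant to callus to shoot induction, and whether the siz1-2 mutation changes that course.

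Values are in rpm: the reads of a gene's most abundant isoform per 1e+06 reads of the library total, as scaled by the authors. Library totals were 7979350 to 15591781 reads, so levels under 1 rpm rest on few reads. A gene was called where limma's moderated test on log2(rpm + 1) gave a Benjamini-Hochberg adjusted p under 0.05 over 20361 tested genes; log2 differences of genes of a few rpm are understated on this scale. Counts of unadjusted p-values under 0.05 are given as a description, since no share over all genes was taken for them. The labels do not say that replicates came from separate cultures, so p-values measure the spread between these libraries only. The labels were checked on SIZ1: the reads listed for its first isoform beyond those of its isoform 3 were 216 to 493 in the 12 WT libraries and at most 0 in the 12 siz1-2 libraries. Summed over 5 shoot meristem markers (WUS, STM, CUC1, CUC2, CLV3), the level was 0.611 to 3.86 rpm at 0 d. It was 3.89 to 31.9 rpm on CIM and 20.8 to 79.1 rpm on SIM. Of these only WUS had no read at 0 d or CIM 4 d in either genotype, while CUC2 had 62 to 351 reads on CIM in WT. Of the root meristem and callus list (WOX5, PLT1, PLT2, LBD16, SCR), the summed level was 274 to 457 rpm on CIM and 9.37 to 20.4 rpm on SIM. These are bulk tissues, in which fewer cells of a type and less RNA per cell cannot be told apart.

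Some libraries stood apart. CIM 4 d replicate 2 of WT and replicate 3 of siz1-2 had 581 and 628 rpm summed over 5 salicylic acid genes (ICS1, EDS5, PBS3, FMO1, CBP60G) against 17.2 to 23.0 rpm in the other 4 CIM libraries. WT 0 d replicate 1 had 535 rpm over 6 photosynthesis genes against 68.1 and 80.9 rpm in its fellow replicates. Over 4 heat genes (HSP101, HSFA2, HSP70-4, MBF1C) WT SIM 6 d replicate 2 had 2011 rpm against 93.9 and 98.0 rpm, and the 3 siz1-2 libraries of 0 d had 852 to 1837 rpm against 149 to 235 rpm in WT. To a lesser degree siz1-2 SIM 4 d replicate 2 stood apart, with 131 rpm over the salicylic acid genes against 53.4 and 50.5 rpm in its fellow replicates. Main results that these libraries move are given with and without them. The part of the conditions these genes mark in the other results was not tested.

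Summed over their members per kilobase of transcript, the 2 families took different courses. The Aux/IAA sum in WT was 1378 ± 79.1 rpm per kb (SD, n = 3) at 0 d, 2301 ± 42.2 on CIM, 1795 ± 65.4 at SIM 4 d and 1603 ± 123 at SIM 6 d. In siz1-2 the same sum ran 1380 ± 76.5, 2176 ± 30.3, 1768 ± 141 and 1591 ± 135 rpm per kb. All 6 CIM libraries lay above all 18 others, and the genotypes overlapped at every stage but CIM, where WT lay just above. The mean ARF sum was higher on SIM than on CIM: in WT it was 223 ± 5.55, 300.0 ± 32.9, 346 ± 47.3 and 374 ± 43.1 rpm per kb, and in siz1-2 it was 193 ± 9.46, 283 ± 16.2, 413 ± 52.0 and 409 ± 32.9 rpm per kb. The ratio of Aux/IAA to ARF transcripts per kb was therefore highest on CIM, 7.74 ± 0.913 in WT and 7.72 ± 0.447 in siz1-2, and lowest at SIM 6 d, 4.33 ± 0.715 and 3.92 ± 0.629. At 0 d it was 6.18 ± 0.375 in WT and 7.18 ± 0.566 in siz1-2, and 2 of the 3 mutant libraries of 0 d lay within the range of its own CIM libraries. These sums were described and not tested.

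**Figure D1:**
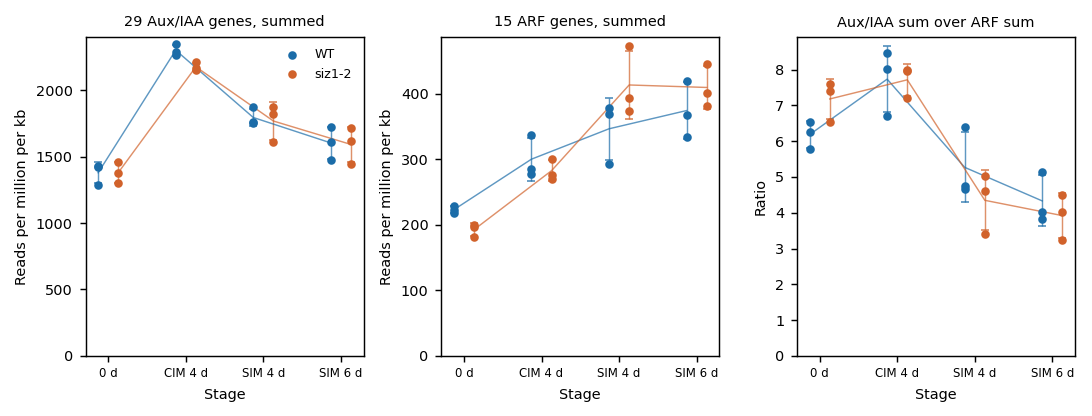
Summed levels of the 29 Aux/IAA genes and the 15 ARF genes (rpm per kb of transcript) and their ratio, by stage; points are libraries, lines join means of 3 libraries and bars are SD. The Aux/IAA sum peaks on CIM (2301 rpm per kb in WT, 2176 in siz1-2) while the ARF sum is higher on SIM than at 0 d in both genotypes.

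Behind the Aux/IAA sum stood few genes. IAA9, a long Aux/IAA with a role in leaf and fruit development known also from tomato, held 16.5% ± 0.659 (SD, n = 3) of the family's transcripts per kb in WT at 0 d and 21.3% ± 1.19 on CIM; in siz1-2 these shares were 14.8% ± 1.16 and 26.7% ± 1.79. It was the most abundant member in every group except siz1-2 at 0 d, where IAA7 (246 ± 28.3 rpm per kb) lay above it (203 ± 5.37 rpm per kb). On CIM the next in WT were IAA2 (237 ± 23.5 rpm per kb), IAA19 (229 ± 31.4) and IAA13 (183 ± 10.0), of which the first 2 did not differ beyond their spread. On SIM the order was IAA9, IAA8, IAA17, IAA16 and IAA26 in WT. At SIM 4 d IAA8 (220 ± 10.4 rpm per kb) and IAA17 (218 ± 21.4) did not differ beyond their spread in WT. Among ARFs, ARF2, a repressor acting in organ growth and senescence, led at 0 d (47.9 rpm per kb in WT, 38.7 in siz1-2), and ARF5 (MONOPTEROS, AT1G19850), the activator needed for embryo and vascular patterning, led in every later group, reaching 93.2 ± 17.3 rpm per kb in WT and 113 ± 12.2 in siz1-2 at SIM 6 d.

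**Figure D2:**
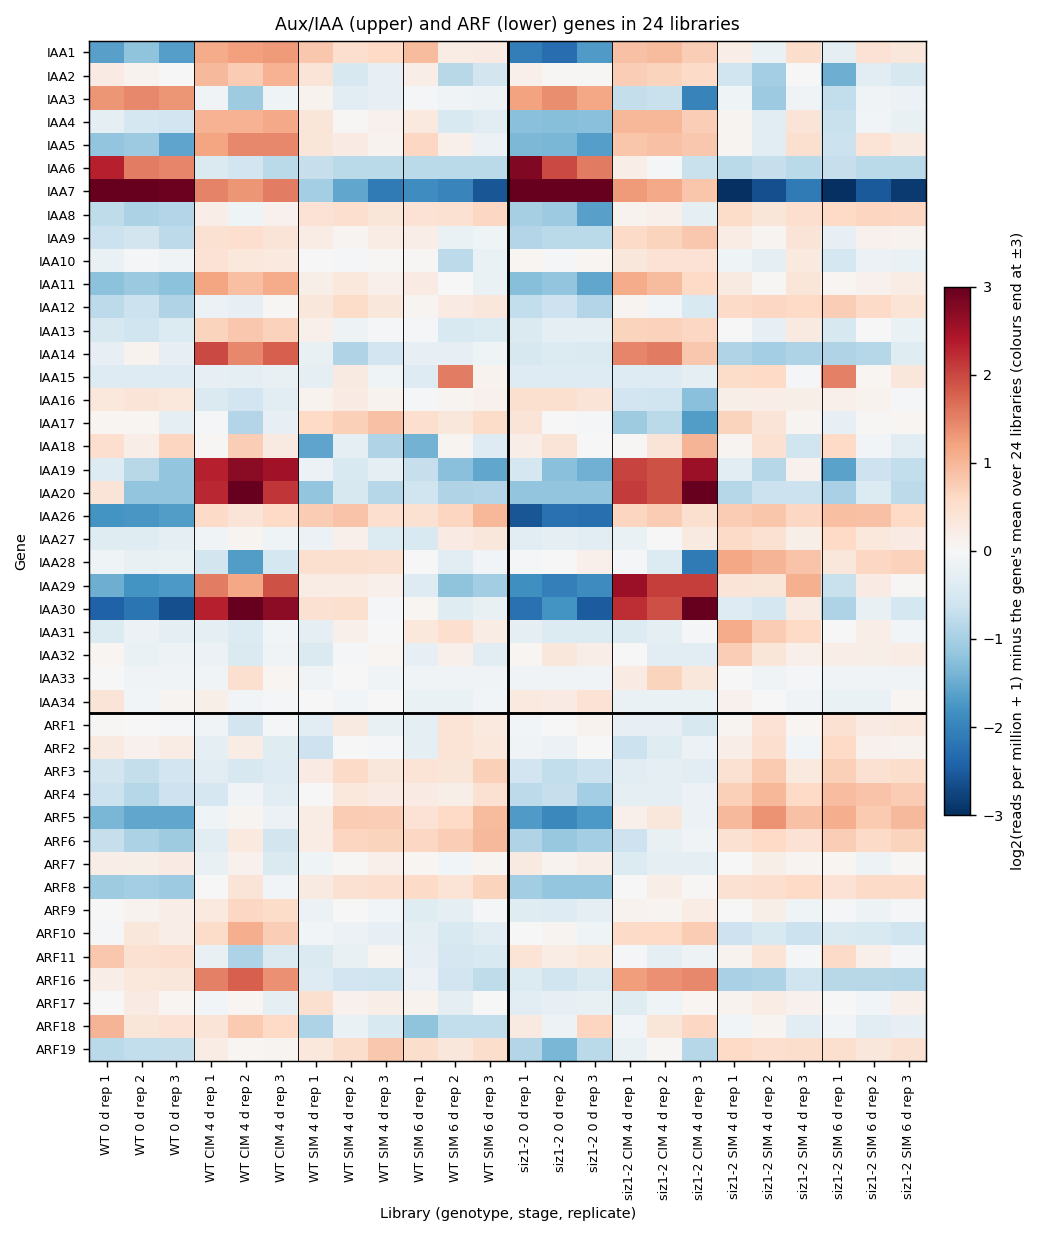
Level of each of the 44 genes in each of the 24 libraries, as log2(rpm + 1) minus the gene's mean over all libraries. Rows above the heavy line are Aux/IAA genes and rows below it ARF genes; the 6 CIM columns hold the highest values of IAA14, IAA19, IAA20, IAA29, IAA30 and ARF16, and the 6 columns of 0 d those of IAA6 and IAA7.

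On CIM most Aux/IAA transcripts rose, several of them many-fold. Of 25 tested Aux/IAA genes, 16 were higher and 4 lower in WT, and 15 were higher and 6 lower in siz1-2. This step changed most of the transcriptome: 75.7% of all tested genes were called in WT (49.1% higher, 26.6% lower) and 77.0% in siz1-2 (49.6% higher, 27.3% lower), so the 75.0% and 80.0% of the 40 tested members called are near the background. The members' sizes lay further out: the median Aux/IAA log2 difference was 0.92 in WT and 0.97 in siz1-2, against 0.35 and 0.37 over all genes. The second family value is the same with IAA20, which had no read in siz1-2 at 0 d, set at its bound. Because the deposited scaling puts the median gene above 0 at this step, small rises here are rises relative to library size only. IAA2, IAA10 and IAA12 are such genes, with log2 differences of 0.38 to 0.80, and each lost its call in WT under median-of-ratios scaling (adjusted p = 0.27, 0.70 and 0.10 with limma).

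IAA30 had the largest rise on the log2(rpm + 1) scale in both genotypes, a scale that understates rises from under 1 rpm. In siz1-2, IAA20, absent at 0 d, may have risen by more, and so may IAA29. Mean levels in siz1-2 went from 0.527 to 24.2 rpm per kb for IAA29 and from 2.40 to 101 for IAA30. IAA30 lacks the canonical degron, so auxin does not lead to its ready degradation. In WT its level was 1.57, 2.01 and 1.2 rpm at 0 d and 68.1, 111 and 86.8 rpm on CIM; in siz1-2 it was 1.93, 2.99 and 1.44 rpm and then 62.2, 51.7 and 155 rpm. No CIM library came near a 0 d library. The log2 difference was 5.09 ± 0.32 (SE) in WT (limma adjusted p = 2.4e-11) and 4.72 ± 0.32 in siz1-2 (limma adjusted p = 6.1e-11). The highest values of each genotype, 111 and 155 rpm, were in the 2 libraries with high salicylic acid genes, and without those the differences were 4.92 and 4.24. IAA20, its close relative and also without the canonical degron, had no read in the 3 siz1-2 libraries of 0 d and 392 reads on CIM, at least 108-fold higher with a floor of 3 reads over the group (counting error only). In WT, IAA20 had 1.99 rpm in 0 d replicate 1, the library high in photosynthesis genes, no read in the other two, and 9.92, 20.8 and 9.02 rpm on CIM. IAA20 and IAA30 share 3 windows of 50 bases of their transcripts exactly, so few reads could count for both.

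Among the Aux/IAA genes with a degron, IAA19 (MSG2), which acts in hypocotyl tropism and lateral root formation, went from 29.6, 21.7 and 16.9 rpm to 200.4, 264 and 231 rpm in WT, a log2 difference of 3.32 ± 0.31 (limma adjusted p = 8.3e-09). In siz1-2 it went from 26.8, 15.8 and 13.9 rpm to 164, 151 and 238 rpm, a difference of 3.25 ± 0.31 (limma adjusted p = 9.9e-09). IAA29, induced in elongating and shade-grown shoots, rose from 1.24, 0.785 and 0.876 rpm to 16.7, 12.8 and 21.9 rpm in WT and from 0.711, 0.478 and 0.666 rpm to 35.5, 24.7 and 25.1 rpm in siz1-2. Its differences were 3.18 ± 0.25 and 4.17 ± 0.25, and every siz1-2 CIM library lay above every WT one. That gap between genotypes did not pass the test: the interaction was 0.98 ± 0.36 (limma adjusted p = 0.16). IAA1, an early auxin-induced gene, rose by 2.71 ± 0.22 in WT (limma adjusted p = 7.5e-10) and by 2.88 ± 0.22 in siz1-2. IAA26 (AT3G16500), which binds a viral replicase in infected plants, rose by 2.25 in WT and by 2.98 ± 0.13 in siz1-2. The other rises with a call in both genotypes were those of IAA4, IAA5, IAA8, IAA9, IAA11, IAA13 and IAA14 (0.92 to 2.63 in log2), beside the small ones of IAA10 and IAA12.

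A further set of Aux/IAA genes fell on CIM. IAA7 (AXR2), whose stabilised form makes dwarf, auxin-resistant plants, went from 274, 284 and 219 rpm to 78.5, 70.1 and 81.8 rpm in WT, a log2 difference of -1.73. In siz1-2 it went from 371, 314 and 300 rpm to 68.3, 61.4 and 49.6 rpm, a difference of -2.44 ± 0.27 (limma adjusted p = 1.1e-07). IAA6 (SHY1) went from 7.78, 4.1 and 3.83 rpm to at most 0.283 rpm in WT and from 11.1, 5.86 and 4.11 rpm to at most 1.02 rpm in siz1-2; the log2 differences were -2.39 and -2.27. IAA6 passed the filter on low values only through 0 d, IAA20 only through CIM, and IAA31 only through siz1-2 SIM 4 d, so their calls at the steps from or to those groups were fixed in part by the filter and support nothing, though they stand in the counts given here. IAA3 (SHY2), which acts in root meristem size, fell by 1.79 and 2.38 on the log2 scale. Its level on CIM, 10.6 to 42.0 rpm, is uncertain, because 42.7% of its transcript overlaps an antisense gene listed at 11.4 to 20.2 rpm and the sources used here do not say whether strand was used in counting. IAA16 fell by 0.78 in WT and by 1.25 in siz1-2. IAA17 (AXR3), whose gain-of-function form changes root gravitropism, fell by 1.29 in siz1-2 and had an uncalled -0.34 in WT, which was called with every rescaling and both count tools (-0.66 to -0.77).

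IAA28, a repressor of lateral root initiation, showed how much 1 library can weigh. On CIM it had 25.6, 11.2 and 26.2 rpm in WT and 36.5, 28.3 and 7.89 rpm in siz1-2, after 32.3 to 34.8 and 36.7 to 42.6 rpm at 0 d. The low values are again those of the 2 libraries with high salicylic acid genes, which also had the lowest IAA3 and, within each genotype, the lowest IAA17. The fall of 0.91 called in siz1-2 was 0.28 on the log2 scale and uncalled without siz1-2 CIM 4 d replicate 3 (limma adjusted p = 0.28), and the call was also lost without 0 d replicate 2 or 3 of siz1-2 (-0.92 and -0.85). In WT the difference of -0.73 was not called (limma adjusted p = 0.07). It was called without the 2 libraries (-0.35, limma adjusted p = 0.014) and under each rescaling and both count tools (-1.03 to -1.15). IAA18, IAA27 and IAA31 were not called on CIM in either genotype.

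**Figure D3:**
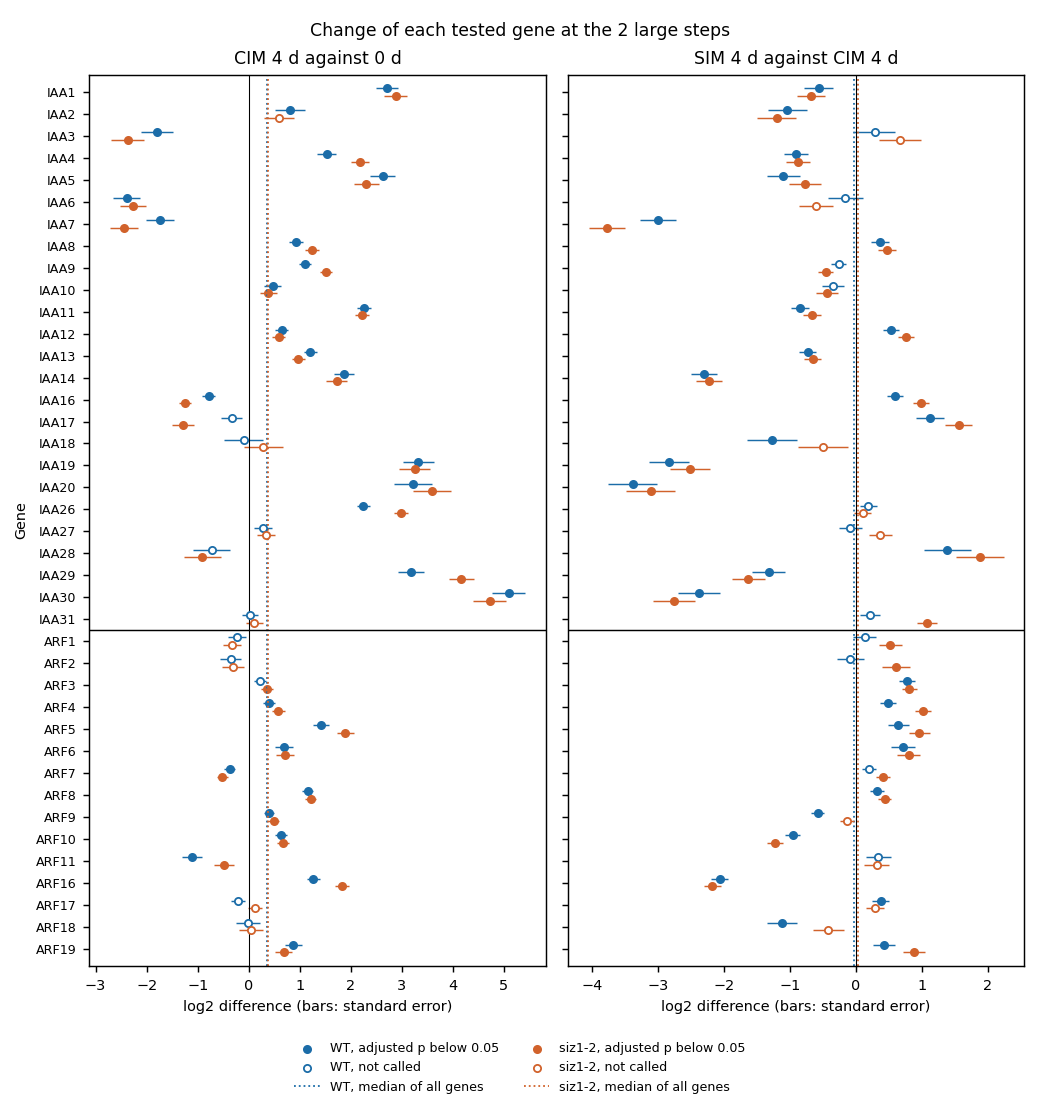
Log2 difference of each tested gene between CIM 4 d and 0 d (left) and between SIM 4 d and CIM 4 d (right), in WT (blue) and siz1-2 (orange). Bars are standard errors, filled points were called, and dotted lines are the medians of all genes (0.35 and 0.37 at the left); the tall rises of IAA19, IAA20, IAA29 and IAA30 at the left turn into falls at the right, while ARF5, ARF6 and ARF8 lie right of the lines in both panels.

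Promoters of 4 genes that rose and then fell are shown because auxin response elements, the ARF binding motifs, can be read in them. The motifs searched, on both strands, were TGTCTC and TGTCGG in the 250 bases before each RefSeq gene start (TAIR10.1). No 2 copies overlapped in a member. Of 27443 protein-coding promoters, 10.9% held TGTCTC, 4.16% held TGTCGG and 14.7% held either. Of the 28 Aux/IAA promoters read 12 held either motif, and of the 15 ARF promoters 3 did (ARF3, ARF7, ARF19). Among the 10 Aux/IAA genes called higher on CIM and lower on SIM in both genotypes (IAA1, IAA4, IAA5, IAA11, IAA13, IAA14, IAA19, IAA20, IAA29 and IAA30) 9 promoters were read and 5 held a motif, and among the 13 tested Aux/IAA genes with other courses 3 did, leaving out IAA8 and IAA12, which rose at both steps and each held 1. These sets were chosen by the results above, so the counts are a description. Capitals mark the motifs, and each sequence runs 5′ to 3′ toward the gene.
IAA19 (AT3G15540), chr3:5263751-5264000, plus strand: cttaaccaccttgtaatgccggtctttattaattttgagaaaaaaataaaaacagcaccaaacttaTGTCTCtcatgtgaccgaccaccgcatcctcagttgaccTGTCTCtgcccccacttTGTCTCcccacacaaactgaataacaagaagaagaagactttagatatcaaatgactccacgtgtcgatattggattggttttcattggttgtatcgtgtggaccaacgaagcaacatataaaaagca
IAA5 (AT1G15580), chr1:5366498-5366747, minus strand: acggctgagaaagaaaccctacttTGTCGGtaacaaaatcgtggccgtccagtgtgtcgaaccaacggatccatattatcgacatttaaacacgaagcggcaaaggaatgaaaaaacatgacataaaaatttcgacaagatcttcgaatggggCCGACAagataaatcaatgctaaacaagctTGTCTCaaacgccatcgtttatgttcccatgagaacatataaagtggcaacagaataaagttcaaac
IAA1 (AT4G14560), chr4:8360746-8360995, plus strand: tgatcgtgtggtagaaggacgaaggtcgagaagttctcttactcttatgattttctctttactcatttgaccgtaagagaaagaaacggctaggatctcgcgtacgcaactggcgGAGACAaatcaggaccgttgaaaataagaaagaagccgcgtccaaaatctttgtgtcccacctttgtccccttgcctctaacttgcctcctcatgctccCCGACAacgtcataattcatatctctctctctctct
IAA20 (AT2G46990), chr2:19307464-19307713, plus strand: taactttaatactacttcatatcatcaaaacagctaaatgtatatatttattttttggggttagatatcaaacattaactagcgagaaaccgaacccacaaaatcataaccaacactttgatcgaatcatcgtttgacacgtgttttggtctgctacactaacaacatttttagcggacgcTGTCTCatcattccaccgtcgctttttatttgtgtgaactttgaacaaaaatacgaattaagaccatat
IAA7 (AT3G23050), chr3:8194356-8194605, plus strand, shown as the member that fell at both steps: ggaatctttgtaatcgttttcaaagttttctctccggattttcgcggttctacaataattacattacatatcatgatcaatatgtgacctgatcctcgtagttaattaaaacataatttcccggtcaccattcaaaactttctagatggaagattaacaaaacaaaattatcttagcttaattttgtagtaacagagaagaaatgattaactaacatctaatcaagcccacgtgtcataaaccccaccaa

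IAA19 held 3 copies of TGTCTC, starting 184, 145 and 128 bases before the gene start. The single copy of IAA20 starts 69 bases before its gene start. The window of IAA7 held neither motif. A match to 6 letters is a description of the sequence and not a measured binding site.

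ARF transcripts moved less than Aux/IAA transcripts on CIM. With the deposited scaling 8 of 15 were higher and 2 lower in WT, and 9 were higher and 2 lower in siz1-2, with medians of 0.39 and 0.48 against 0.35 and 0.37 over all genes. The shares called higher, 53.3% in WT and 60% in siz1-2, stood against 49.1% and 49.6% of all genes. The shares called in either direction, 66.7% and 73.3%, were no more than the 75.7% and 77.0% of all genes. With TMM scaling the counts were 5 higher and 5 lower in WT and 4 higher and 4 lower in siz1-2. Of all 20361 genes, TMM scaling gave 7707 higher and 7255 lower in WT and 7961 and 7495 in siz1-2. The rises that held under both rescalings in both genotypes were those of ARF5, ARF8 and ARF16. ARF5 went from 80.3, 71.0 and 71.5 rpm to 193, 221 and 186 rpm in WT and from 64.4, 54.4 and 62.9 rpm to 234, 267 and 188 rpm in siz1-2, log2 differences of 1.42 ± 0.16 (limma adjusted p = 1.1e-07) and 1.89 ± 0.16 (limma adjusted p = 1.3e-09). ARF8, an activator of flower and root growth, rose by 1.15 ± 0.10 in WT (limma adjusted p = 3.2e-09) and by 1.21 ± 0.10 in siz1-2 (limma adjusted p = 1.3e-09). ARF16 (AT4G30080), a repressor that acts in root cap formation, went from 23.9, 26.3 and 26.7 rpm to 61.0, 74.3 and 55.1 rpm in WT, a difference of 1.27 ± 0.13 (limma adjusted p = 3.4e-08), and from 15.3, 13.5 and 15.2 rpm to 51.0, 55.3 and 58.2 rpm in siz1-2, a difference of 1.83 ± 0.13 (limma adjusted p = 1.0e-10). For all 3 genes the 0 d and CIM libraries were fully apart in each genotype, a description of genes picked by their calls, with no share over all genes taken.

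The remaining ARF rises on CIM were small. ARF6, ARF9 and ARF10 had log2 differences of 0.40 to 0.71 in both genotypes, ARF4 had 0.39 in WT and 0.58 in siz1-2, and ARF3 had 0.35 in siz1-2; these calls were lost, and ARF3, ARF4 and ARF9 changed sign in 1 genotype, under at least 1 rescaling. ARF19, the activator that acts with ARF7 in lateral root formation, rose by 0.87 ± 0.17 in WT; its rise of 0.68 in siz1-2 lost its call under TMM scaling (0.32, limma adjusted p = 0.11). ARF7 (NPH4) itself fell by 0.38 in WT and by 0.52 in siz1-2. ARF11 fell by 1.12 ± 0.19 in WT (limma adjusted p = 2.5e-05) and by 0.48 in siz1-2, at levels of 2.45 to 10.5 rpm. The call in siz1-2 was lost without any 1 of 3 libraries, 0 d replicate 1 or 3 or CIM replicate 2 (-0.42 to -0.48). ARF1, ARF2, ARF17 and ARF18 were not called with the deposited scaling, and ARF1 and ARF2 were called lower in both genotypes with TMM scaling (-0.58 to -0.71). ARF17 was called lower in WT with both rescalings and both count tools (-0.55 to -0.65), and in siz1-2 with median-of-ratios scaling (-0.30).

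The families parted between CIM 4 d and SIM 4 d. At SIM 4 d, 13 of 25 Aux/IAA genes were lower and 5 higher than on CIM in WT, and 14 were lower and 6 higher in siz1-2. Of the 15 ARF genes, 7 were higher and 4 lower in WT and 9 were higher and 2 lower in siz1-2. The background was 45.7% of all tested genes called in WT and 53.9% in siz1-2, which split into 24.5% lower and 21.2% higher in WT and 25.1% lower and 28.8% higher in siz1-2, so the Aux/IAA shares called lower, 52.0% and 56.0%, and the ARF shares called higher, 46.7% and 60%, were about 2 times the share of all genes. Median log2 differences were -0.57 and -0.61 for Aux/IAA and 0.32 and 0.44 for ARF genes, against -0.03 and 0.03 over all genes. These counts moved by at most 1 gene under TMM or median-of-ratios scaling.

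IAA20, IAA19, IAA30 and IAA14, which had risen on CIM, were among the 5 largest falls in each genotype. IAA30 went down to 17.7, 18.0 and 12.5 rpm in WT and to 9.54, 8.52 and 15.5 rpm in siz1-2, log2 differences of -2.38 ± 0.32 (limma adjusted p = 7.3e-06) and -2.77 ± 0.32 (limma adjusted p = 9.3e-07). Every SIM value of IAA30 stayed above every 0 d value. IAA19 went down to 34.7, 28.3 and 31.7 rpm in WT, a difference of -2.83 ± 0.31 (limma adjusted p = 5.8e-07), and to 31.1, 21.4 and 43.2 rpm in siz1-2, a difference of -2.52 ± 0.31 (limma adjusted p = 1.8e-06). IAA20 went down to at most 0.646 rpm, with log2 differences of -3.39 and -3.12, which follow in part from its passing the filter through CIM only. IAA14 (SLR), the repressor of the first division of lateral root founder cells, returned from 13.9 to 32.4 rpm on CIM to 3.21 to 6.31 rpm, with differences of -2.31 ± 0.20 (limma adjusted p = 1.8e-08) in WT and -2.23 ± 0.20 in siz1-2.

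The mean level of IAA6 fell at both steps in both genotypes, but limma with all libraries did not call its second fall. IAA7 alone among the Aux/IAA genes was called lower at both steps in both genotypes. After CIM it dropped to 13.2, 8.72 and 5.57 rpm in WT and to 1.77, 3.59 and 5.58 rpm in siz1-2, log2 differences of -3.01 ± 0.27 (limma adjusted p = 6.2e-08) and -3.78 ± 0.27 (limma adjusted p = 2.2e-09). A gene that held 14.1% ± 1.14 (SD, n = 3) of the Aux/IAA transcripts per kb in WT at 0 d and 17.8% ± 1.13 in siz1-2 was thus at a few rpm on SIM. IAA1, IAA2, IAA4, IAA5, IAA11, IAA13 and IAA29 also fell in both genotypes, by 0.57 to 1.63. The call of IAA1 in WT was lost without any 1 of 5 of its 6 libraries (-0.50 to -0.61, limma adjusted p = 0.059 to 0.12). Those of IAA1 and IAA5 in siz1-2 were lost without SIM 4 d replicate 2 of siz1-2 (-0.49 and -0.56). IAA18 fell in WT only as a call (-1.27), which was lost without WT SIM 4 d replicate 1 (-0.94, limma adjusted p = 0.07); the value in siz1-2 was -0.50, and the difference between genotypes was not called (0.76 ± 0.54). IAA9 and IAA10 were called lower in siz1-2 and not in WT (-0.45 and -0.44), a difference between genotypes that was not called. The call of IAA10 was lost without any 1 of 4 libraries, CIM replicate 2 or 3 or SIM 4 d replicate 1 or 2 of siz1-2 (-0.32 to -0.43).

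A smaller set rose. IAA28 went up to 53.3, 53.5 and 52.5 rpm in WT, log2 difference 1.39 ± 0.36 (limma adjusted p = 0.0040), and to 86.4, 78.5 and 70.0 rpm in siz1-2, 1.89 ± 0.36 (limma adjusted p = 2.4e-04). Without the 2 CIM libraries with high salicylic acid genes these rises were 1.01 and 1.25 and were still called. IAA17 rose by 1.13 and 1.56, IAA16 by 0.60 and 0.99, IAA12 by 0.54 and 0.76 and IAA8 by 0.37 and 0.48; the call of IAA8 in WT was lost without CIM replicate 2 (0.27), SIM 4 d replicate 1 (0.37) or SIM 4 d replicate 2 (0.33) of WT. IAA31, which lacks the canonical degron, had 1.86, 1.27 and 1.03 rpm (55 reads) at SIM 4 d in siz1-2, after 4 reads on CIM, and at most 0.878 rpm in any library of another group. IAA26 was not called, with 214 to 277 rpm in the 6 libraries of SIM 4 d against 199 to 257 rpm on CIM. IAA3, IAA6 and IAA27 were not called with limma on log2(rpm + 1) and all libraries. IAA6 in siz1-2 was called lower by edgeR (-4.16) and DESeq2 (-4.60), at levels of at most 1.02 rpm. Limma also called it lower with a pseudocount of 0.25 (-1.46) or with a replicate block (-0.61). IAA27 in siz1-2 was called higher without the 2 CIM libraries (0.50), as was ARF17 (0.40).

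**Figure D4:**
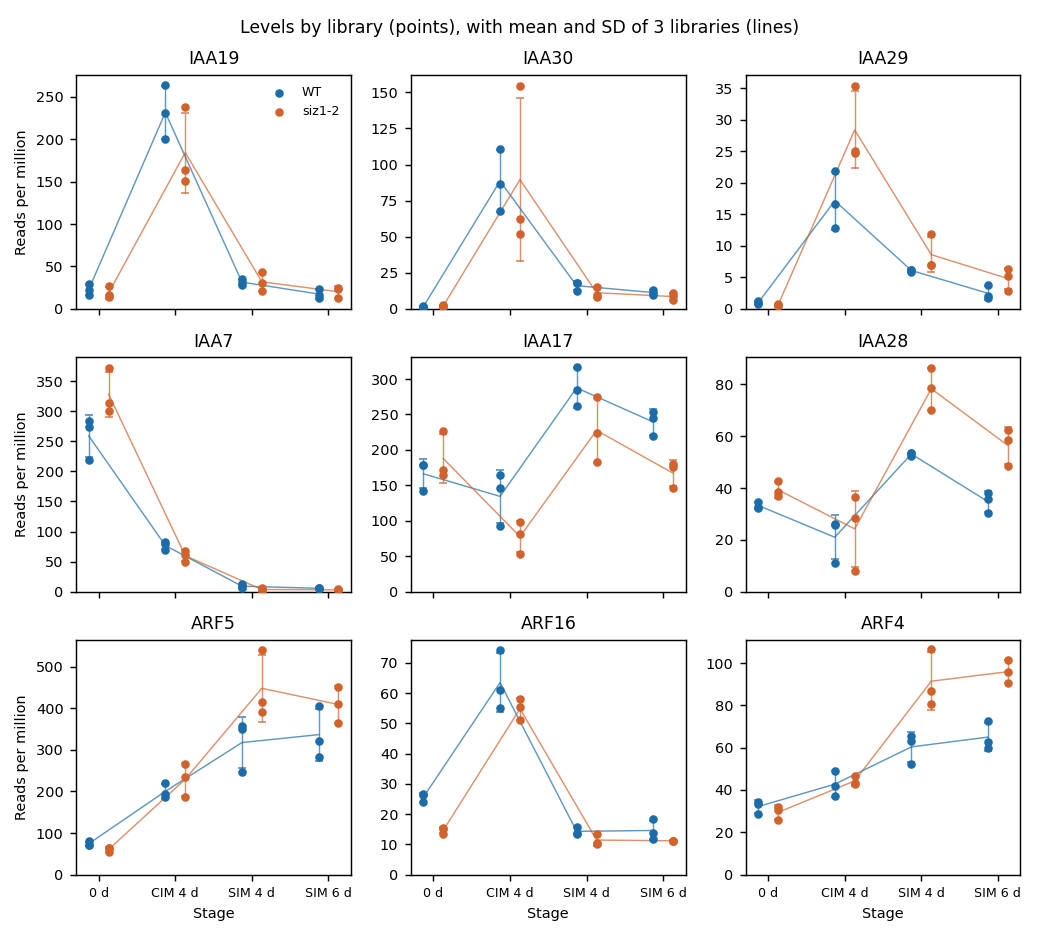
Levels in rpm of 9 genes by stage in WT (blue) and siz1-2 (orange); points are libraries, lines join the means of 3 libraries and bars are SD. IAA19, IAA29, IAA30 and ARF16 peak on CIM, IAA7 only falls, IAA17 and IAA28 dip on CIM and peak at SIM 4 d, and ARF5 and ARF4 climb to SIM 4 d.

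Most activator ARFs were called higher on SIM. ARF5 reached 246, 357 and 351 rpm in WT and 415, 540 and 391 rpm in siz1-2, log2 differences of 0.65 and 0.96 ± 0.16 (limma adjusted p = 5.4e-05 in siz1-2). ARF6, which acts with ARF8 in flower maturation, rose by 0.72 ± 0.18 (limma adjusted p = 0.0024) and 0.81, ARF8 by 0.32 and 0.44, and ARF19 by 0.43 and 0.88 ± 0.17 (limma adjusted p = 2.3e-04 in siz1-2). In WT the call of ARF19 was lost without any 1 of 5 libraries (0.30 to 0.49) and that of ARF8 without any 1 of 4 (0.23 to 0.30). ARF7 rose by 0.42 in siz1-2 and had an uncalled 0.20 in WT, which was 0.35 and called without WT CIM 4 d replicate 2. All 5 activators were thus called higher in siz1-2 and 4 of 5 in WT. Of 10 repressors, 3 were called higher and 4 lower in WT, and 4 higher and 2 lower in siz1-2. The repressor shares called higher, 30% and 40%, lay near those of all genes, 21.2% in WT and 28.8% in siz1-2. Of all genes 24.5% were called lower in WT and 25.1% in siz1-2.

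Among the repressor ARFs, ARF3 (ETTIN) and ARF4 (AT5G60450), which act in organ polarity and are targets of trans-acting siRNAs from TAS3, rose. ARF3 rose by 0.78 ± 0.12 in WT (limma adjusted p = 1.9e-05) and by 0.81 in siz1-2. ARF4 went from 37.0, 49.2 and 42.0 rpm to 52.3, 65.6 and 63.3 rpm in WT, a difference of 0.49, and from 43.1, 43.0 and 46.8 rpm to 87.0, 107 and 80.6 rpm in siz1-2, a difference of 1.02 ± 0.12 (limma adjusted p = 1.2e-06). ARF1 and ARF2 rose in siz1-2 only as calls (0.52 and 0.61), both lost without siz1-2 SIM 4 d replicate 2 (0.40 and 0.46), and also without CIM replicate 3 (ARF1, 0.44) or replicate 1 (ARF2, 0.49) of siz1-2. ARF9 fell by 0.58 and ARF18 by 1.12 ± 0.23 (limma adjusted p = 5.6e-04) in WT, with uncalled values of -0.13 and -0.42 in siz1-2. ARF17 rose by 0.38 in WT, a call lost without WT CIM 4 d replicate 3 or WT SIM 4 d replicate 1 (0.28 and 0.27). ARF11 was not called.

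ARF10 and ARF16 followed the Aux/IAA course. ARF16 fell from CIM to 15.8, 13.7 and 13.4 rpm in WT and to 10.2, 10.5 and 13.5 rpm in siz1-2, log2 differences of -2.07 ± 0.13 (limma adjusted p = 3.5e-10) and -2.18 ± 0.13 (limma adjusted p = 1.4e-10). Its SIM values lay below those of CIM in every library, and in WT also below those of 0 d. ARF10 fell by 0.96 ± 0.12 in WT (limma adjusted p = 2.2e-06), from 37.7, 55.2 and 43.2 rpm to 24.1, 22.4 and 21.3 rpm, and by 1.22 ± 0.12 in siz1-2 (limma adjusted p = 7.2e-08). Both genes, with ARF17, are known targets of miR160, and ARF6 and ARF8 of miR167, so the miRNAs and their sites are shown. The miRNA lines have the seed (bases 2 to 8) in capitals; the site lines, read 5′ to 3′ in the transcript, have in capitals the bases that form Watson-Crick pairs with the miRNA. All 5 sites lie within coding sequence.
miR160a-5p, chr2:16340282-16340302, plus strand: uGCCUGGCucccuguaugcca
ARF17 site, chr1:29274189-29274209, plus strand: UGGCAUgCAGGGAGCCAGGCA
ARF10 site, chr2:12115741-12115761, plus strand: aGGaAUACAGGGAGCCAGGCA
ARF16 site, chr4:14704141-14704161, minus strand: gGGuuUACAGGGAGCCAGGCA
miR167a-5p, chr3:8108090-8108110, plus strand: uGAAGCUGccagcaugaucua
ARF8 site, chr5:14633841-14633861, plus strand: UAGAUCAgGCUGGCAGCUUgu
ARF6 site, chr1:10686478-10686498, minus strand: gAGAUCAgGCUGGCAGCUUgu
The sites of ARF17, ARF10 and ARF16 pair at 20, 19 and 18 of the 21 bases of miR160, and no other ARF transcript pairs at more than 13. Those of ARF8 and ARF6 pair at 18 and 17 bases of miR167, the others at 14 or fewer. The 3 genes with a miR160 site did not share a course: with the deposited scaling ARF10 and ARF16 rose on CIM and then fell, while ARF17, at 10.4 to 19.5 rpm in every library, was not called on CIM. The rise of ARF10 lost its call in both genotypes with median-of-ratios scaling and DESeq2, where ARF17 was called lower in WT. The miRNAs themselves were not measured in these libraries of polyadenylated RNA.

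From SIM 4 d to SIM 6 d little was detected. The descriptions of SIM 6 d replicates 2 and 3 of both genotypes state the days on the media the other way round (6 on CIM, 4 on SIM) from their titles and sampling times, which were followed here. None of the 40 tested members was called in WT, against 0.589% of all genes, and IAA31 alone was called in siz1-2, against 0.629% (0.344% lower). Unadjusted p-values were under 0.05 for 6 members in WT and 3 in siz1-2. edgeR called none in WT or siz1-2, and DESeq2 called IAA29 in WT (-1.28) and none in siz1-2. IAA29 had 6.23, 6.22 and 5.84 rpm and then 3.74, 1.68 and 1.99 rpm in WT, log2 difference -1.08 ± 0.25 (limma adjusted p = 0.06). The groups of IAA29 did not overlap, but replicate 2 at SIM 6 d was the library high in heat genes. IAA31 in siz1-2 had 55 reads at SIM 4 d and 14 at SIM 6 d; it was tested only because of the former group, so its call is no result, and the count tools did not make it.

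Between the genotypes few members differed. At 0 d, 4 of 40 were called, all lower in siz1-2, or 10.0% against a background of 11.0% (6.6% lower), which is no more than for any gene. ARF16 had 15.3, 13.5 and 15.2 rpm in siz1-2 against 23.9, 26.3 and 26.7 rpm in WT, a log2 difference of -0.76 ± 0.13 (limma adjusted p = 7.1e-04). IAA4, an early auxin-induced gene, had 40.5, 40.0 and 40.8 rpm against 81.4, 68.2 and 65.8 rpm, a difference of -0.81 ± 0.18 (limma adjusted p = 0.0068). IAA26 had 24.9, 31.2 and 31.0 rpm against 43.4, 44.7 and 47.0 rpm, a difference of -0.62 ± 0.13 (limma adjusted p = 0.0035). ARF9, which acts in embryo patterning, had 27.8, 27.2 and 29.1 rpm against 35.5, 38.6 and 40.9 rpm, a difference of -0.44 ± 0.10 (limma adjusted p = 0.0072). All 4 were called under each scaling and by both count tools. The siz1-2 libraries of 0 d were also the ones high in heat genes; their part in these differences was not tested.

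On CIM none of the members was called between genotypes, against 2.2% of all genes. Unadjusted p-values were under 0.05 for 8, edgeR called none and DESeq2 called IAA17. IAA17 had 82.0, 97.7 and 53.5 rpm in siz1-2 and 164, 93.3 and 146 rpm in WT, a log2 difference of -0.79 ± 0.21 (limma adjusted p = 0.06); the groups overlapped only through WT replicate 2, and without that library the difference was -1.03 (limma adjusted p = 0.0084).

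At SIM 4 d, 3 of 40 members were called, 2 higher and 1 lower in siz1-2, against 2.2% of all genes (1.1% in each direction). At SIM 6 d 1 of 40 was called, higher in siz1-2, against 3.01% (1.42% higher). ARF4 was called at both times and higher in siz1-2: 87.0, 107 and 80.6 rpm against 52.3, 65.6 and 63.3 rpm at SIM 4 d, a log2 difference of 0.59 ± 0.12 (limma adjusted p = 0.01), and 101, 95.7 and 90.7 rpm against 62.6, 59.8 and 72.6 rpm at SIM 6 d, 0.56 ± 0.12 (limma adjusted p = 0.01). The genotypes did not overlap at either time, and edgeR and DESeq2 called both. The call at SIM 4 d did not survive leaving out WT replicate 1 (0.49) or replicate 2 of siz1-2 (0.47). The latter was the siz1-2 library of SIM 4 d higher in salicylic acid genes, whose part was not tested. Nor did the call at SIM 6 d survive leaving out WT replicate 1, WT replicate 2 or replicate 1 of siz1-2 (0.50 to 0.53). IAA7 was lower in siz1-2 at SIM 4 d, 1.77, 3.59 and 5.58 rpm against 13.2, 8.72 and 5.57 rpm, a difference of -1.14 ± 0.27 (limma adjusted p = 0.03) that was lost without any 1 of 4 of these libraries (-0.82 to -1.18). The third call, IAA31, had 55 reads in siz1-2 against 12 in WT; it passed the filter only through this siz1-2 group, so its call is no result, and neither count tool made it. Of the libraries that stood apart, 4 were left out (WT 0 d replicate 1, both CIM libraries and WT SIM 6 d replicate 2). Without them 5 members were called at SIM 4 d, IAA28 (0.55) and ARF10 (-0.41) beside those above, and 2 at SIM 6 d, with IAA28 (0.59).

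**Figure D5:**
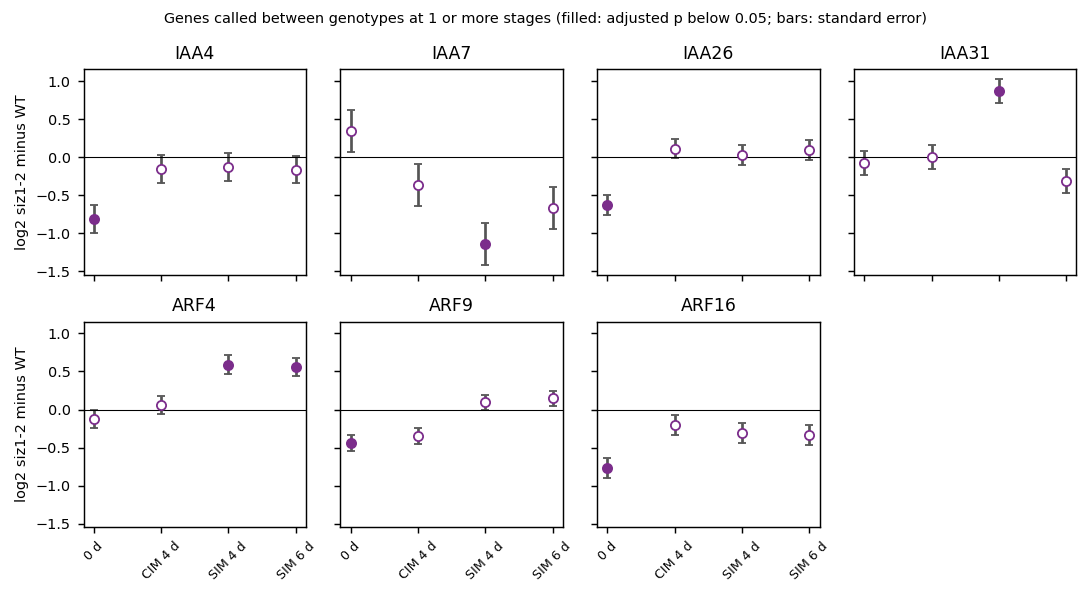
Log2 difference between siz1-2 and WT at each stage for the 7 members called at 1 or more stages; bars are standard errors and filled points were called. IAA4, IAA26, ARF9 and ARF16 lie below 0 at 0 d, and ARF4 lies near 0.6 at both SIM times; IAA31 was tested only because of its level in siz1-2 at SIM 4 d.

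The steps themselves were compared between genotypes with interaction terms. For the step from 0 d to CIM only IAA26 was called, with a rise larger by 0.74 ± 0.18 in siz1-2 (limma adjusted p = 0.03), against 3.15% of all genes (1.64% in that direction). Its levels on CIM overlapped, 238, 257 and 213 rpm in siz1-2 against 226, 199 and 229 rpm in WT, so the genotypes differed at the start of the step. The call was lost without any 1 of 7 of the 12 libraries (adjusted p up to 0.088 with limma) and without those 4 single libraries, where IAA17 was called in its place (-1.0), as DESeq2 also did beside IAA26. For the later steps limma, edgeR and DESeq2 called no member, against 0.211% and 0.00982% of all genes with limma; unadjusted limma p-values were under 0.05 for 6 members from CIM to SIM 4 d and for 1 from SIM 4 d to SIM 6 d.

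The rest of the auxin response pathway was read on a list of 28 genes. All 8 early auxin targets, the auxin-conjugating enzymes GH3.1, GH3.2, GH3.3, GH3.5 and GH3.6 and the transcription factors LBD16, LBD18 and LBD29, rose on CIM in both genotypes. The share of all genes called higher at this step was 49.1% in WT and 49.6% in siz1-2. GH3.1 rose by 4.84 in WT and by 6.38 in siz1-2, and LBD18 by 4.48 in WT. On SIM all 8 fell in WT and 7 in siz1-2, where GH3.6 had an uncalled -0.54. Of all genes 24.5% were called lower at this step in WT and 25.1% in siz1-2. LBD16 fell by 5.60 and 4.89. Of the 6 receptors, AFB1 rose by 1.87 and 2.19 on CIM and fell by 1.23 and 1.33 on SIM, AFB2 fell by 1.36 and 1.11 and then rose by 0.48 and 0.61, and TIR1 was not called at either step. TPR3 was the co-repressor with the largest change, 1.81 and 2.22 higher on CIM. Of 9 genes of the SCF complex and its neddylation cycle, 4 were higher on CIM in both genotypes, with CAND1 highest (0.72 and 0.99). On CIM 3 were lower in WT and 1 in siz1-2. The shares called, 77.8% in WT and 55.6% in siz1-2, lay near or below the 75.7% and 77.0% of all genes. Their median log2 differences, 0.12 and 0.26, lay below those of all genes, 0.35 and 0.37, so small rises here are relative to library size only. At 0 d GH3.1, LBD16, TPR3 and AFB2 were lower in siz1-2 (-1.47, -1.22, -0.67 and -0.29). They were 2 of 8 early targets, 1 of 5 co-repressors and 1 of 6 receptors, beside 0 of 9 SCF and neddylation genes. Over all genes 11.0% were called at 0 d (6.6% lower). The siz1-2 libraries of 0 d were high in heat genes, whose part was not tested. At the later stages no gene of the list was called between genotypes. The shares of all genes called there were 2.2% on CIM, 2.2% at SIM 4 d and 3.01% at SIM 6 d. Unadjusted p-values under 0.05 numbered 2 on CIM, 7 at SIM 4 d and 0 at SIM 6 d.

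The members not tested were IAA15, IAA32, IAA33 and IAA34, which did not reach 1 rpm in 3 libraries. IAA15 had no read at 0 d, and its highest values were 2.78 rpm in WT SIM 6 d replicate 2 and 2.73 rpm in siz1-2 SIM 6 d replicate 1. The other 3 lack the canonical degron and had at most 1.27, 0.717 and 0.555 rpm in any library. IAA32 lies over 50.8% of its transcript opposite another gene listed at 6.46 to 32.3 rpm, so its few reads cannot be assigned with confidence. At these depths their absence from a stage cannot be told from a low level.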

How the data were processed

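RNA of hypocotyl explants was sequenced in 24 libraries, 3 for each of the 8 groups of genotype by stage. The deposited signal values are whole reads per transcript isoform, scaled by the authors to a total per library; per the submitters' processing notes, bcl2fastq, Bowtie 1.2.1 and the TAIR10 build were used. The counting rule and its use of strand are not given in the sources used here. All values came out as whole reads (tolerance 0.001 read), and the values of a library sum to more than 1e+06. With 1 isoform kept per gene, the reads still sum to 102.5% to 103.6% of the library total. Some reads therefore appear to count for more than 1 isoform and some for more than 1 gene. Library totals were 7979350 to 15591781 reads. The number of reads limits the precision of low values, and the bound from 3 reads covers counting error only.

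Each gene was represented by its isoform of highest mean over all libraries (25960 genes from 33864 isoforms). Genes with at least 1 rpm in at least 3 libraries (20361) were fitted with limma 3.58.1 in R 4.3.3 on log2(rpm + 1), as 8 group means in 1 model with mean-variance trend and robust moderation. Adjusted p-values are Benjamini-Hochberg over all 20361 genes and were called under 0.05. edgeR 4.0.16 and DESeq2 1.42.0 on the recovered reads, other scalings, pseudocounts, filters, summed isoforms, a replicate block and left-out libraries were alternatives. The fit was tested on simulated reads.

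The members and lists were chosen with earlier results of these data known. Any member could be named; full statistics went to the 5 Aux/IAA and 3 ARF members with the largest called change in a comparison, and values of the pathway list to at most 2 called genes per role in a comparison, with the other genes of that list that are named chosen after their values were seen. Statistics of members beyond those were likewise added after their values were seen. Promoters, coding sites and miRNAs come from RefSeq (TAIR10.1), to which 25593 genes could be matched by identifier; 1 Aux/IAA promoter is not reported here.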

Additional observations from a re-analysis of the deposited data

Results flagged for a closer look

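The rise of IAA26 from 0 d to CIM 4 d differed between the genotypes by the test of the difference itself. The interaction term was 0.737 on the log2 scale (SE 0.18, limma adjusted p = 0.03), with the larger rise in siz1-2, and edgeR and DESeq2 called it too. IAA26 was at 24.9, 31.2 and 31.0 rpm in siz1-2 and at 43.4, 44.7 and 47.0 rpm in WT at 0 d, while the CIM levels overlapped. The siz1-2 libraries of 0 d were also the libraries high in heat genes, and the part of that in the difference was not tested. Over the alternatives the adjusted p ran from 0.012 to 0.088, and leaving out any 1 of 7 of the 12 libraries ended the call. Groups of 3 libraries are too small for a test of single outlying libraries, so none was made. Of the single libraries that stood apart by summed marker genes, 4 were left out together, and each library was left out in turn.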

How the results depend on the processing

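Of 132 calls of members, 97 kept their direction and call in every alternative run and 35 did not; the causes were not tested. The 4 libraries are WT 0 d replicate 1, WT CIM 4 d replicate 2, siz1-2 CIM 4 d replicate 3 and WT SIM 6 d replicate 2, and the 2 libraries are the CIM ones among them. Counts of called members moved most where few were called. From SIM 4 d to SIM 6 d, DESeq2 called 1 in WT and 2 were called without the 2 CIM libraries (0 with all libraries; 0 to 1 leaving out each library). In siz1-2 the single call became 0 with a pseudocount of 0.25, a filter at 5 rpm, edgeR, DESeq2 or only the groups compared, and 2 without the 4 libraries or the 2 CIM libraries (0 to 1 leaving out each library). Between genotypes on CIM the count of 0 became 1 with DESeq2, without the 4 and without the 2 libraries (0 to 1). At SIM 4 d the count of 3 became 1 with only the groups compared and 5 without the 4 or the 2 libraries (0 to 3), and at SIM 6 d the count of 1 became 0, 2 and 4 in the same order (0 to 1). For the interaction from 0 d to CIM the count of 1 became 2 with DESeq2 and without the 2 libraries (0 to 1), and from SIM 4 d to SIM 6 d the count of 0 became 1 with no filter on low values (0 to 1). Leaving out 2 libraries was chosen after seeing the data. The call counts of the 4 large steps and of 0 d stayed within 1.5 times in every alternative. Scaling moved the CIM step: all genes were 10003 higher and 5417 lower in WT as deposited, 7707 and 7255 with TMM and 7237 and 7679 with median-of-ratios scaling, and in siz1-2 10109 and 5560, then 7961 and 7495, then 7497 and 7884. Small rises there changed sign: ARF4 and ARF9 in WT (-0.028 and -0.029 with median-of-ratios scaling, -0.022 and -0.024 with DESeq2), IAA10 in siz1-2 (-0.037 and -0.041) and ARF3 in siz1-2 (-0.015 with TMM, -0.018 with edgeR, -0.095 with median-of-ratios scaling, -0.099 with DESeq2). With isoforms summed, the ratio of Aux/IAA to ARF transcripts per kb was 4.14 in WT and 4.65 in siz1-2 at 0 d and 6.51 and 6.90 on CIM, still higher on CIM. In no comparison did the deviations of every pair of same-numbered libraries correlate above 0.1. Single pairs ran from -0.731 to 0.607, both between genotypes on CIM. With 3 libraries a group this cannot exclude pairing. With the replicate block 130 of the 132 calls held, the step from CIM to SIM 4 d in WT had 27 called members in place of 29, and IAA1 (limma adjusted p = 0.052) and ARF19 (limma adjusted p = 0.059) lost theirs.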
